A study of Mus musculus with 6 samples.

Results

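The RNA of 10 genes was examined in the cortex of mice after microglia depletion. These encode NF-kB transcription factor subunits, proteins of the IkB family, or the feedback inhibitor A20. The genes were chosen by name, with earlier results of these data known, and were 10 of 23366 genes in the table. They were the subunit genes Nfkb1, Nfkb2, Rel, Rela and Relb, the IkB family genes Nfkbia, Nfkbib, Nfkbie and Nfkbiz, and Tnfaip3, which encodes A20. All 10 were found. Of these, 9 averaged 0.5 FPKM or more and were tested, and Rel did not reach this level. RNA-seq of brain cortex was made from 3 control mice (A1, A2 and A3) and 3 microglia-depleted mice (A4, A5 and A6) on day 10 after depletion, with 1 library per mouse. Depleted mice were CX3CR1-CreERT2+/-iDTR+/-, so that Cre recombinase driven by the CX3CR1 promoter switched on a diphtheria toxin receptor, and control mice were littermates with CX3CR1-CreERT2+/- and no iDTR. Both groups carried the Cre allele as heterozygotes, both had the C57BL/6 background and both received tamoxifen, which activates the Cre. Diphtheria toxin was used to deplete. Whether control mice received it is not given in the sources used here. The mice were adult and age-matched by the study's text, and their exact age is not given there. The CX3CR1 promoter is active in microglia and in other cells of the myeloid lineage. The comparison asks whether the RNA of these genes in bulk cortical tissue, frontal by the study's text, differed between depleted and control mice at this time.

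NF-kB factors are dimers of proteins of the Rel family that wait in the cytoplasm, bound by inhibitors of the IkB family. Signals from cytokine and Toll-like receptors lead IkB kinases to mark the inhibitors for destruction, the dimers enter the nucleus, and among the genes they switch on are those of their own inhibitors, which closes a feedback loop. In a slower branch, processing of the Nfkb2 precursor releases dimers that contain RelB. In brain these factors are known from microglia, astrocytes, endothelial cells and neurons.

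Values were FPKM, fragments per kilobase of transcript scaled to library size, so that levels can be set beside each other between genes as well as between mice. The spacing of low values in 1813 short genes put depth at about 14580000, 20500000 and 18340000 fragments in A1, A2 and A3 and at 13740000, 3560000 and 11240000 fragments in A4, A5 and A6. These are estimates of fragments behind the scaled values, not read totals, and the fragment numbers and counting intervals below rest on them. A score of how closely the low values fell on whole fragments, 1 at best, was 0.756 in A5 at this estimate and 0.695 at 2 times the estimate. At 0.5 times its own estimate no mouse scored above -0.057, so the score of A5 would have been low if its depth were 2 times the value given. A5 was thus the shallowest library, by a factor of 5.76 against the deepest, and 7144 genes were at 0 there against 5834 to 6033 in the control mice. A4 stood apart in other ways: its mean correlation with the other 5 mice across genes was 0.972, against 0.981 to 0.985 for the others, and limma gave it the lowest array weight, 0.304, against 0.875 in A5, 0.685 in A6 and 1.39 to 2.44 in the control mice. The sex-linked genes also differed within groups. Xist, transcribed from the inactive X chromosome, was at 46.7, 45.2 and 4.74 FPKM in the control mice and at 30.9, 40.1 and 38.1 FPKM in the depleted mice, and the sum of 4 Y-linked genes was 5.56 FPKM in A4 and at most 0.16 FPKM elsewhere, although the methods describe the mice as sex-matched. A4 thus held Xist and Y-linked RNA together, and whether its library holds RNA of more than 1 mouse was not tested. The log2 fold changes of the members tested and the medians of the lists on the pathway are therefore given with and without A4. P-values measure the spread between these mice, which the labels name as separate only by title.

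In control cortex inhibitor RNA led the order of levels. Nfkbia, which encodes IkB-alpha, the inhibitor that is degraded and remade fastest, was the most abundant at 15.5 ± 0.830 FPKM (mean ± SD, n = 3). Nfkbib, encoding IkB-beta, followed at 10.4 ± 0.647 FPKM, and Rela, encoding the p65 subunit that carries the activation domain of the classical dimer, at 7.92 ± 0.325 FPKM. Nfkb1, the precursor gene of p50, was at 4.08 ± 0.368 FPKM and Relb at 2.79 ± 0.347 FPKM. Each of these was apart from the next, as were Relb from Nfkbiz and Tnfaip3 from Nfkbie. Among the other neighbours Nfkbiz overlapped Tnfaip3, Nfkbie overlapped Nfkb2, and Nfkb2 overlapped Rel, the lowest, at 0.453 ± 0.0643 FPKM. Among all genes tested, Nfkbia stood at percentile 64.9 of control levels and Nfkb2 at percentile 5.3. In the depleted mice Relb had the higher mean of the pair Relb and Nfkb1, but with overlapping ranges, and only 3 of the 9 neighbouring pairs in the order were apart: Nfkbib from Rela, Nfkb1 from Tnfaip3, and Nfkb2 from Rel.

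**Figure D1:**
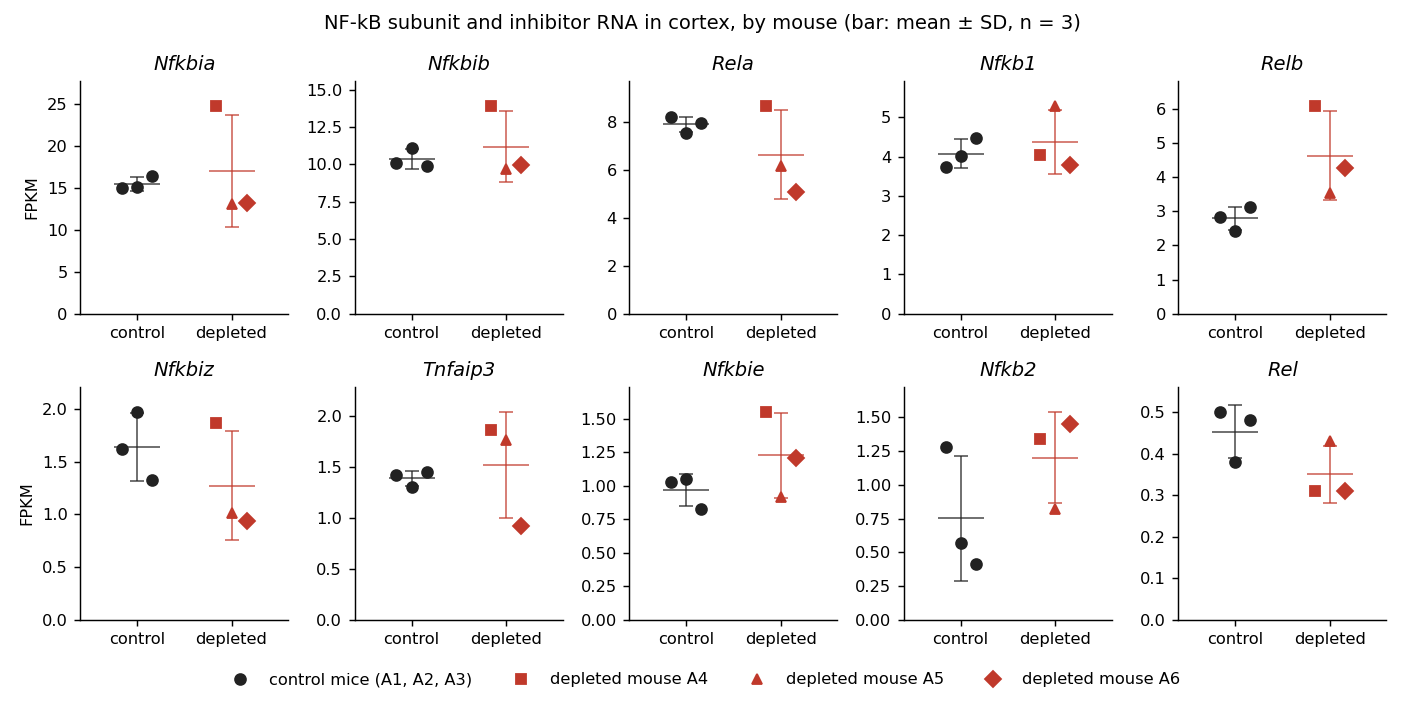
FPKM of each of the 10 genes in each mouse, with control mice as black circles and A4, A5 and A6 as red squares, triangles and diamonds; bars give the mean ± SD (n = 3), and panels have their own axes starting at 0. Relb is the gene whose depleted mice, at 3.55 to 6.09 FPKM, all lie above its control mice, at 2.43 to 3.12 FPKM.

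Because several of these genes are known as targets of the factors they encode or restrain, the 250 bases before the annotated start sites were searched on both strands for the kB consensus, the 10-letter motif to which NF-kB dimers bind. RefSeq promoters (GRCm38.p6) were found for 7 of the 10 genes, and those of Nfkb1, Relb and Nfkbiz were not used here. Of these 7 genes 5 held a match: Nfkb2 in each of its 3 promoters, Rel, Nfkbia, Nfkbie, and Tnfaip3 in 1 of its 2 promoters, while Rela and Nfkbib held none. Counted by promoter, 7 of the 10 member promoters held a match, beside 3.9% of all 32851 promoters of this length. The windows of Nfkb2 (promoter 1, chr19:46304487-46304736, plus strand), Nfkbia (chr12:55492648-55492897, minus strand) and Tnfaip3 (promoter 1, chr10:19015411-19015660, minus strand) are shown because they belong to a subunit and to both kinds of feedback inhibitor, and that of Rela (chr19:5637291-5637540, plus strand) as the subunit without a match. Each runs 5′ to 3′ up to the base before the start site, with matches on either strand in capitals.
Nfkb2: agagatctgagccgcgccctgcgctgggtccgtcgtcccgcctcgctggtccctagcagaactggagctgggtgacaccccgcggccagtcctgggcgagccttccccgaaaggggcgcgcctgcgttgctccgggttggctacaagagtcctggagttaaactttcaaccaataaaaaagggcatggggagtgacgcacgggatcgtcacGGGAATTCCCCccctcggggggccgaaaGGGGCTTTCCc
Nfkbia: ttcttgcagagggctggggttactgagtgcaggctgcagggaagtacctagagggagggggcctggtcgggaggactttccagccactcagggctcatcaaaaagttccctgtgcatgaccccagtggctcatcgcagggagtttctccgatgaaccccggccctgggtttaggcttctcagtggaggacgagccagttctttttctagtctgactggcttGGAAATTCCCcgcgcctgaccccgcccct
Tnfaip3: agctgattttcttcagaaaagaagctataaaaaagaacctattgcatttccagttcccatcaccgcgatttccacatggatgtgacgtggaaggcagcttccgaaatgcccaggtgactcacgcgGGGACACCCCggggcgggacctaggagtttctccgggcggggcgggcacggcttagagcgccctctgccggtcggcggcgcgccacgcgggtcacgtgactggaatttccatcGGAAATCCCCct
Rela: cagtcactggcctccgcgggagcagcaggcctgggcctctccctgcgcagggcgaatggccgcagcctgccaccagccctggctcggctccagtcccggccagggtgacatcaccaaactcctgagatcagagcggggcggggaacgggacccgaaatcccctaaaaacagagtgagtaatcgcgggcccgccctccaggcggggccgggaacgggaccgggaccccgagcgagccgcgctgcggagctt
In Nfkb2 the matches began 39, 38 and 11 bases before the start, the first pair overlapping, in Nfkbia 29 bases before it, and in Tnfaip3 125 and 12 bases before it. A match describes the letters of the window only, and binding was not measured here. Over the whole table, the 601 tested genes with a match had a median log2 fold change of -0.02 and the 9976 without one had -0.01.

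With all 6 mice, 0 of the 9 genes tested passed an adjusted p of 0.1 in limma, where 4 of 14385 genes (0.0278%) passed. At an unadjusted p under 0.05 in limma there was 1, Relb, higher in depleted mice; 4.79% of all genes were past that mark in this direction and 5.74% in the other. The groups did not overlap for the same gene, 1 of 9 with every depleted mouse above every control mouse and 0 of 9 with every one below, beside 8.21% and 9.38% of all genes. Log2 fold changes, here and below of FPKM + 1 as depleted minus control, were above 0 for 7 of the 9 with a median of 0.07; of all genes tested 6907 were above and 7478 below 0, with a median of -0.01. Without A4, 4 of the 9 were above 0 and the median was -0.05. The choice of mice also set which genes were apart: without A4 the groups did not overlap for 4 of 9 (Relb above, and Rela, Nfkbia and Nfkbiz below; 30.2% of all genes in either direction), and without A5 for 3 of 9 (Nfkb2, Relb and Nfkbie above; 32.7% of all genes). With 3 mice against 3, the exact permutation test cannot give a p below 0.1. In bulk tissue, a different number of cells that make an RNA and a different amount of it per cell cannot be told apart.

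**Figure D2:**
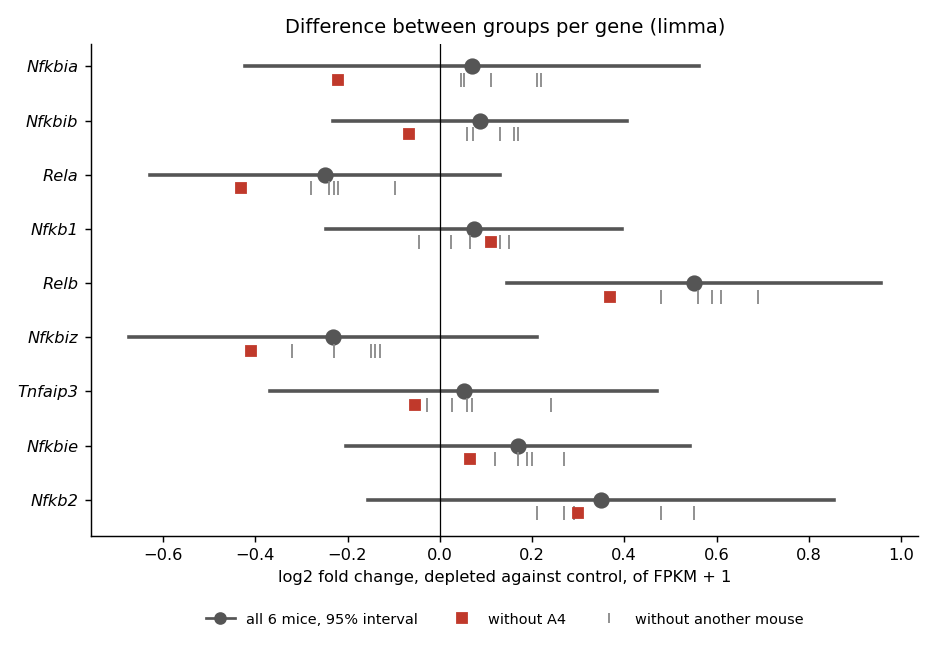
Log2 fold change of FPKM + 1, depleted against control, for the 9 genes tested, as a grey circle with its 95% interval in limma; red squares leave out A4 and grey ticks leave out each of the other 5 mice. The interval of Relb, 0.14 to 0.96, lies above 0, and without A4 the values of Nfkbia, Nfkbib and Tnfaip3 lie below 0.

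Relb, the subunit that pairs with the processed Nfkb2 product, was at 2.83, 2.43 and 3.12 FPKM in the control mice and at 6.09, 3.55 and 4.27 FPKM in the depleted mice. All 3 depleted mice lay above all 3 control mice, with A4 highest and the shallow library A5 nearest to control. The means were 2.79 ± 0.347 and 4.64 ± 1.31 FPKM (SD, n = 3), a ratio of 1.66. Its log2 fold change was 0.55 (95% interval 0.14 to 0.96), with an unadjusted p of 0.0138 and an adjusted p of 0.388 in limma, so that it did not pass the test over all genes; the exact permutation p was 0.1, the smallest this design allows. About 28 fragments lay behind the value of A5, whose 95% Poisson interval of 2.37 to 5.15 FPKM took in all 3 control values, whereas A4 (5.25 to 7.04 FPKM) and A6 (3.50 to 5.16 FPKM) had intervals above those values, although the interval of the control mouse A3 reached 3.70 FPKM. Such intervals cover counting error only. Without A4 the log2 fold change was 0.37 with an adjusted p of 0.335 in limma, and over all alternatives the adjusted p ran from 0.203 to 0.892.

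Nfkb2, the gene of the p100 precursor, was at 1.28, 0.57 and 0.41 FPKM in the control mice and at 1.34, 0.82 and 1.45 FPKM in the depleted mice. The control mouse A1 lay among the depleted mice and the other control mice below all of them, so the groups overlapped through A1. The log2 fold change of 0.35 had a 95% interval of -0.16 to 0.86 and an adjusted p of 0.605 in limma. It was 0.30 without A4, 0.55 without A1, 0.21 without A3, 0.71 with a pseudocount of 0.1 and 0.52 after rescaling to TPM. Counting error was large at this level, with about 11 fragments in A5 (0.40 to 1.44 FPKM) and 29 in A3. In addition, the gene overlaps Psd on the opposite strand of chromosome 19: 15.4% of the 75-base windows of Nfkb2 transcripts also occurred in transcripts of Psd or of the noncoding AC114539.1, and whether counting used strand is not given in the sources used here. Psd was far more abundant, at 129.7, 129 and 124 FPKM in control and 127, 108 and 115 FPKM in depleted mice. Whether the reads of the shared stretch were told apart is thus not known, and the level of Nfkb2 is uncertain.

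Rela was below control in 2 of the 3 depleted mice. It was at 8.21, 7.57 and 7.99 FPKM in the control mice and at 8.69, 6.18 and 5.07 FPKM in the depleted mice. A4 was the highest of all 6 mice, and A5 and A6 were the lowest. The log2 fold change was -0.25 (95% interval -0.63 to 0.13) with an adjusted p of 0.618 in limma; without A4 it was -0.43 with an adjusted p of 0.230, within a range of 0.230 to 0.915 over the alternatives, and without A6 it was -0.10. The Poisson interval of A6, from about 155 fragments, was 4.31 to 5.94 FPKM and lay below those of the control mice, the lowest of which began at 6.86 FPKM, while that of A5 (4.74 to 7.99 FPKM) overlapped them.

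Of the remaining subunits, Nfkb1 had a ratio of depleted to control means of 1.07. Rel, which was not tested, had a ratio of 0.772, beside 0.839 for Rela. Nfkb1 was at 3.74, 4.02 and 4.47 FPKM in control and at 4.04, 5.29 and 3.78 FPKM in depleted mice, and A5, with about 78 fragments, held the highest value while A4 and A6 lay within the control range. Its log2 fold change was 0.07 (95% interval -0.25 to 0.39; adjusted p of 0.880 in limma), and it was 0.11 without A4, 0.15 without A6, 0.03 without A1 and -0.05 without A5. Rel, the c-Rel gene best known from lymphocytes and myeloid cells, was at 0.50, 0.38 and 0.48 FPKM in control and at 0.31, 0.43 and 0.31 FPKM in depleted mice. A4 and A6 lay below every control mouse and A5, at about 11 fragments, among them, and the difference of the mean log2 values was -0.11 (-0.19 after rescaling to TPM) and the exact permutation p was 0.2.

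Set against one another within each mouse, a comparison that no scaling of the libraries can alter, Rela and Relb were the 1 pair of the 4 tested subunits whose ratio did not overlap between groups. They are also the tested subunits with the lowest and the highest log2 fold change, so the ratio is a description of values already seen, and Rel was not among the pairs. Of all pairs of tested genes above 0 FPKM in every mouse, 17.3% had ratios that did not overlap. A single pair among those of 4 subunits does not exceed that share. The ratio of Rela to Relb FPKM was 2.90, 3.12 and 2.56 in the control mice and 1.43, 1.74 and 1.19 in the depleted mice. Every depleted mouse lay below every control mouse, and the means were 2.86 ± 0.280 and 1.45 ± 0.278 (SD, n = 3). As a share of the summed FPKM of the 5 subunits, Rela made up 49.6, 50.6 and 48.5% in control and 42.5, 38.0 and 34.1% in depleted mice. Relb made up 17.1, 16.2 and 18.9% in control and 29.8, 21.8 and 28.7% in depleted mice, and neither share overlapped between groups. Nfkb1 shares, at 22.6, 26.9 and 27.1% against 19.7, 32.5 and 25.4%, did overlap. The summed subunit level itself was 16.6, 14.97 and 16.5 FPKM in control and 20.5, 16.3 and 14.9 FPKM in depleted mice, also overlapping. Of the 36 pairs of tested members, 10 had ratios that did not overlap between groups, beside 17.3% of the 101239335 pairs formed by the 14230 tested genes above 0 FPKM in every mouse; 4 of the 10 contained Relb, 4 contained Rela and 4 contained Nfkbiz, so that these pairs share their genes and are not separate observations. No test was made of a ratio.

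**Figure D3:**
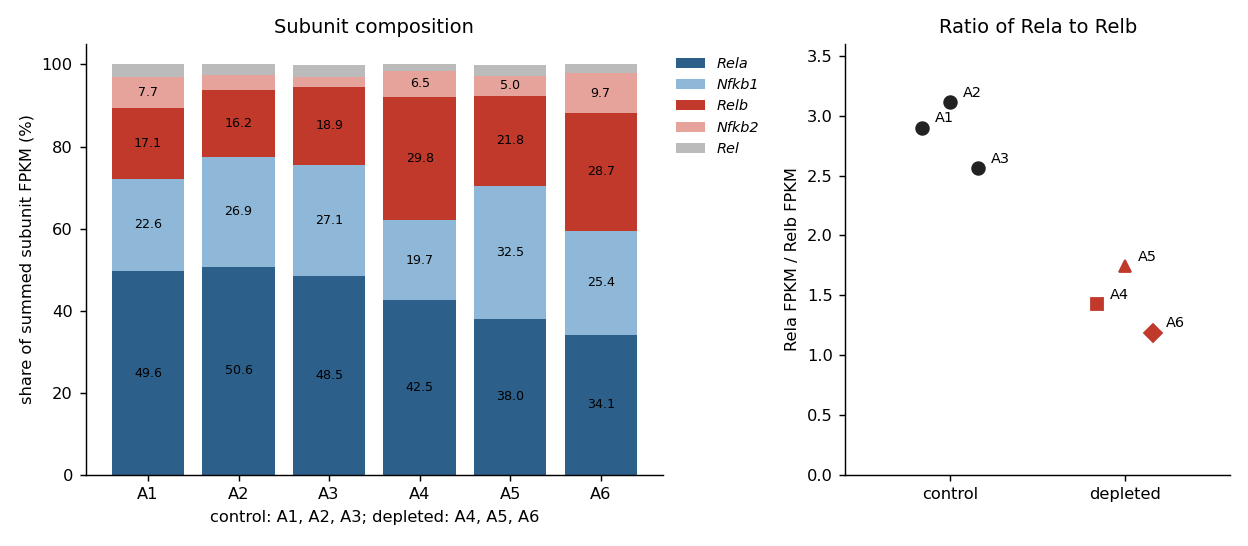
Left, share of each of the 5 subunit genes in their summed FPKM in each mouse, in percent; right, FPKM of Rela divided by that of Relb in each mouse, on a linear axis from 0. Rela holds 48.5 to 50.6% in control and 34.1 to 42.5% in depleted mice, and the ratio is 2.56 to 3.12 in control and 1.19 to 1.74 in depleted mice.

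Among the inhibitors, A4 held the highest value of Nfkbia, Nfkbib and Nfkbie, and the groups overlapped for each of them. Nfkbia was at 14.9, 15.1 and 16.4 FPKM in the control mice and at 24.8, 13.1 and 13.2 FPKM in the depleted mice. A4 was above all control mice and A5 and A6 were below all of them, so that the mean hid opposite sides. The log2 fold change of 0.07 (95% interval -0.42 to 0.56; adjusted p of 0.931 in limma) became 0.22 without A5, 0.21 without A6 and -0.22 without A4 (adjusted p of 0.337, in a range of 0.337 to 0.983 over the alternatives). Nfkbib was at 10.1, 11.1 and 9.89 FPKM in control and at 13.9, 9.72 and 9.97 FPKM in depleted mice, again with A4 highest and the other depleted mice at or near the control range. Its log2 fold change was 0.09 (95% interval -0.23 to 0.41) and -0.07 without A4, 0.17 without A5 and 0.16 without A6. Nfkbib overlaps Ccer2 and Sirt2 on the opposite strand of chromosome 7, and 11.6% of its 75-base windows also occurred in Ccer2 transcripts, and how the reads of that stretch were divided between the genes is not given in the sources used here. Nfkbie, encoding IkB-epsilon, was at 1.03, 1.05 and 0.83 FPKM in control and at 1.55, 0.92 and 1.21 FPKM in depleted mice. A4 and A6 lay above the control mice and A5, from about 8 fragments, within them, and the log2 fold change was 0.17 (95% interval -0.20 to 0.54), 0.07 without A4, 0.27 without A5 and 0.29 with a pseudocount of 0.1.

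Nfkbiz, whose product IkB-zeta acts in the nucleus on a subset of late target genes, was at 1.62, 1.97 and 1.33 FPKM in control and at 1.87, 1.01 and 0.94 FPKM in depleted mice. A5 and A6 were the lowest of the 6 mice and A4 lay within the control range, and the log2 fold change was -0.23 (95% interval -0.67 to 0.21) and, without A4, -0.41 with an adjusted p of 0.349 in limma, the lowest of 0.349 to 0.924 over the alternatives. It was -0.13 without A6, -0.14 without A2, -0.15 without A5 and -0.39 with a pseudocount of 0.1. Tnfaip3, which encodes A20 and shuts down signalling upstream of the kinases, was at 1.42, 1.31 and 1.45 FPKM in control and at 1.87, 1.77 and 0.92 FPKM in depleted mice. A4 and A5 lay above the narrow control range and A6 below it, and the log2 fold change was 0.05 (95% interval -0.37 to 0.47), -0.05 without A4, -0.03 without A5 and 0.24 without A6. Summed over Nfkbia, Nfkbib and Nfkbie, inhibitor RNA was 26.1, 27.2 and 27.2 FPKM in control and 40.2, 23.7 and 24.4 FPKM in depleted mice. Divided by the subunit sum, this gave 1.57, 1.82 and 1.65 in control and 1.97, 1.46 and 1.64 in depleted mice, which overlapped.

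A4 therefore held the highest value of 6 of the 9 tested genes (Nfkbia, Nfkbib, Nfkbie, Rela, Relb and Tnfaip3), as it did of 26.9% of all tested genes. The median distance of the 9 genes from their control means was 0.37 on the log2 scale in A4, against -0.04 in A5 and -0.08 in A6. A list of 20 interferon-stimulated genes was farthest from control in the same mouse. Its median distance was 2.81 on the log2 scale in A4, against 0.86 in A5 and 0.79 in A6. For 17 of the 20 the groups were apart with depleted mice higher, beside 8.21% of all genes. All 20 had log2 fold changes above 0, with a median of 1.46 (0.94 over the 17 tested without A4). In limma 0 passed the adjusted test (2 without A4, Ifit3 among them). At an unadjusted p under 0.05 in limma there were 15, all higher in depleted mice, beside 4.79% of all genes. Their summed level was 69.5, 49.4 and 58.8 FPKM in control and 602, 127 and 125.5 FPKM in depleted mice, with Ifit3 the most abundant. Their part in the NF-kB values was not tested.

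**Figure D4:**
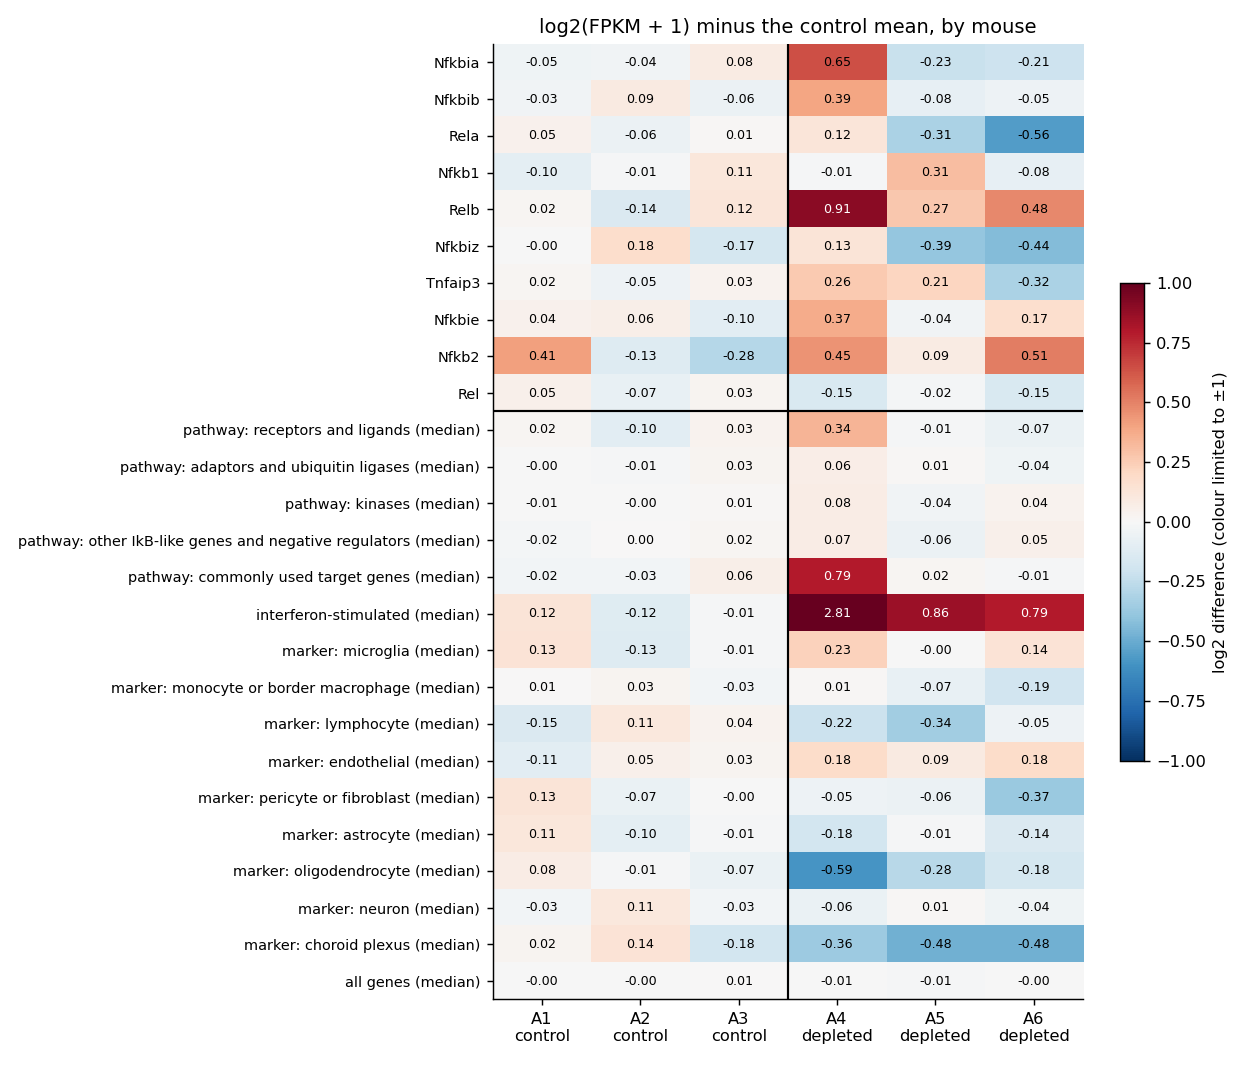
Difference of log2(FPKM + 1) from the control mean in each mouse, for the 10 genes (above the line) and as the median of each comparison list (below it); colour is limited to ±1 and the number is the value. A4 has the highest value of 6 of the 9 tested genes and the largest interferon median, 2.81.

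Upstream of the factors, the list of receptors and ligands had 13 of 25 genes above the filter, 8 with a log2 fold change above 0 and 5 below, a median of 0.06 and 0 past the adjusted threshold in limma. Without A4, 4 of 13 were above 0 and the median was -0.08. Tnf itself was listed at 0 in all 6 mice. Tnfrsf12a, the receptor of the cytokine TWEAK, was at 4.49, 3.79 and 5.17 FPKM in control and at 16.9, 7.83 and 4.14 FPKM in depleted mice, which overlapped because A6 lay within control. Tnfrsf11a, the receptor RANK, was at 0.82, 0.99 and 0.57 FPKM in control and at 1.26, 1.50 and 1.25 FPKM in depleted mice, all of them above control (adjusted p of 0.451 in limma). At the other end Il33, an alarmin of the interleukin-1 family, had a log2 fold change of -0.22 (-0.05 without A4) and was lowest in A4 at 16.2 FPKM, and Il1rap, the shared chain of interleukin-1 receptors, had -0.12 (-0.08 without A4). Of the adaptors and ubiquitin ligases 19 of 20 were tested, 12 above 0 and 7 below, with a median of 0.05, and without A4 8 were above 0 with a median of -0.01. Ripk1, a kinase scaffold at the TNF receptor, was at 1.10, 1.25 and 1.41 FPKM in control and at 1.83, 2.11 and 1.73 FPKM in depleted mice. Rbck1, which encodes HOIL-1 of the linear ubiquitin ligase, was at 40.9, 37.4 and 39.4 FPKM in control and at 32.2, 35.6 and 29.8 FPKM in depleted mice. Both had groups that did not overlap, on opposite sides, with adjusted p of 0.440 and 0.394 in limma; Birc3, at a log2 fold change of 0.21 (0.03 without A4), and Traf5, at -0.28, overlapped.

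Of the kinases 9 of 10 were tested, 5 above 0 and 4 below, and the median was 0.03, or -0.03 without A4 with 4 above 0. Of the catalytic pair, Chuk, encoding IKK-alpha, was at 11.5 ± 0.580 FPKM in control and 10.97 ± 0.289 FPKM in depleted mice, and Ikbkb, encoding IKK-beta, at 10.97 ± 0.144 and 9.89 ± 1.996 FPKM (SD, n = 3), with A4 lowest at 8.05 FPKM and A6 above all control mice at 12.01 FPKM. The log2 fold change of Ikbkb was -0.15, or -0.03 without A4. Tbk1, a related kinase that also acts on interferon regulatory factors, had a log2 fold change of 0.19 (0.09 without A4) and overlapped, and Tab3, an adaptor of the kinase TAK1, had 0.17 with all depleted mice above control. Of the other IkB-like genes and negative regulators 14 of 17 were tested, 9 above 0 and 5 below, and the median was 0.03, or 0.004 without A4 with 7 above 0. Tax1bp1, an A20 partner, was at 49.9, 51.5 and 50.4 FPKM in control and at 65.5, 53.0 and 57.8 FPKM in depleted mice, all above control, with an adjusted p of 0.465 in limma. Tnip2, another A20 partner, had a log2 fold change of 0.15, Pdlim2, a ligase for nuclear p65, had -0.23 (-0.10 without A4), and the linear deubiquitinase gene Fam105b (Otulin) had -0.20 (-0.36 without A4).

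Of the commonly used target genes 16 of 27 were tested, 11 above 0 and 5 below, with 0 past the adjusted threshold in limma; Ccl20 and Cxcl2 were listed at 0 in all mice. Their median log2 fold change was 0.19 with all mice and -0.03 over the 14 tested without A4. Cxcl10, a chemokine that interferons also induce, was at 1.23, 0.13 and 0.69 FPKM in control and at 42.1, 5.07 and 3.38 FPKM in depleted mice. Ccl5, likewise induced by both pathways, was at 0.25, 0.37 and 0.20 FPKM in control and at 11.7, 2.10 and 9.50 FPKM in depleted mice. These were the 2 targets whose groups did not overlap, with adjusted p of 0.370 and 0.283 in limma and log2 fold changes of 2.69 and 2.55, or 1.67 and 2.17 without A4. Ccl5 passed the threshold in limma without A5 (adjusted p of 0.00145) and with array weights (0.0950), and its adjusted p ran from 0.00145 to 0.892 over the alternatives. At the low end Myc, a growth regulator, was at -0.22 and Irf1, an interferon regulatory factor, at -0.15, or -0.57 without A4. Over all 5 lists 71 of 99 genes were tested, 45 above 0 and 26 below, with a median of 0.06. In limma 0 passed the adjusted threshold. At an unadjusted p under 0.05 in limma there were 5 higher and 1 lower, beside 4.79% and 5.74% of all genes. Of the 71, 6 had groups apart with depleted mice higher and 1 with depleted mice lower, beside 8.21% and 9.38% of all genes. Without A4, 29 of 69 were above 0 with a median of -0.03.

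**Figure D5:**
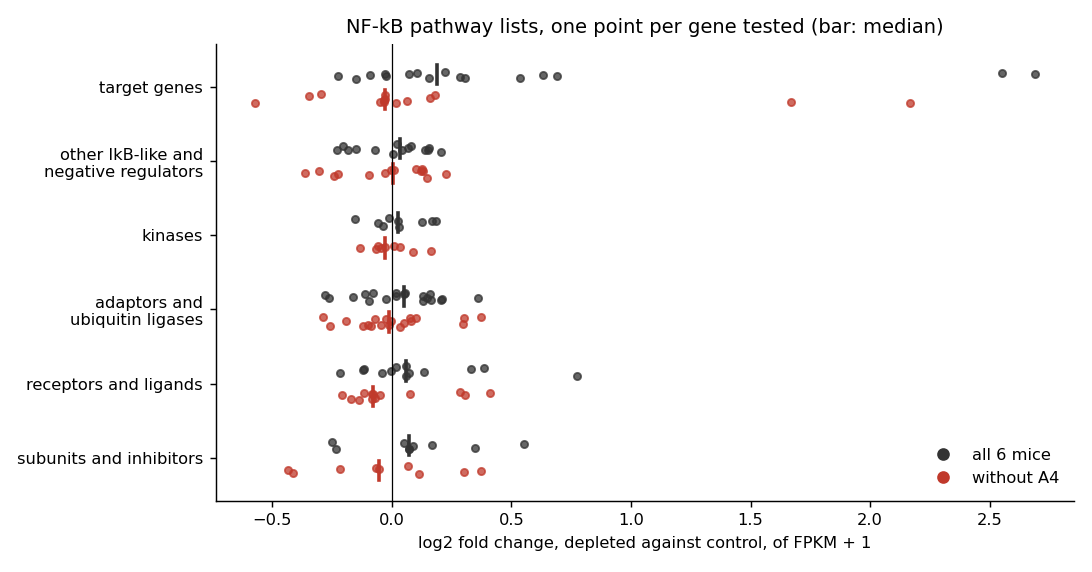
Log2 fold change of FPKM + 1, depleted against control, of each tested gene of the NF-kB lists (1 point per gene, vertical bars are medians), with all 6 mice in black and without A4 in red. The median of the target genes is 0.19 with all mice and -0.03 without A4, and the points farthest to the right are Ccl5 and Cxcl10.

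Markers of the cells that could carry these RNAs follow, with levels given in A1, A2 and A3 and then in A4, A5 and A6. The 16 microglia markers summed to 278, 226 and 256 FPKM in control and to 425, 268 and 332 FPKM in depleted mice, with C1qb the most abundant, 12 of 16 above 0 in log2 fold change (8 of 16 without A4) and 0 at 0 FPKM. Without the complement genes C1qa, C1qb and C1qc the other 13 summed to 152, 125 and 137 FPKM in control and to 170.2, 132 and 159.8 FPKM in depleted mice, which overlapped. In 7 of the 16 every depleted mouse was above control and in 2 every one was below, beside 8.21% and 9.38% of all genes. These 2 were P2ry12 and Fcrls. P2ry12, a purinergic receptor of resting microglia, was at 9.57, 10.2 and 8.50 FPKM against 7.18, 6.45 and 7.91 FPKM. Fcrls was at 11.9, 8.19 and 13.3 FPKM against 3.83, 5.05 and 7.91 FPKM. With all mice 0 of the 16 passed the adjusted threshold in limma, and without A5 Aif1 and C1qa passed (adjusted p of 0.0411 and 0.0708). Monocyte or border macrophage markers (6 of 9 tested, 3 above 0) summed to 6.92, 8.35 and 6.68 FPKM in control and to 9.89, 7.19 and 4.75 FPKM in depleted mice. That sum joined genes on opposite sides, Ly6c2 with a log2 fold change of 0.62 and Pf4, the most abundant, with -0.85 (-0.54 without A4), neither past the adjusted threshold in limma. Of 11 lymphocyte markers only Cd4 was tested, and Ms4a1 was at 0 in all mice. Endothelial markers (8 of 10 above 0, led by Ly6c1) summed to 50.6, 57.0 and 57.7 FPKM in control and to 65.25, 60.4 and 60.2 FPKM in depleted mice. Log2 fold changes were above 0 for 1 of 9 pericyte or fibroblast markers (median -0.25) and 3 of 10 astrocyte markers (median -0.14, or -0.08 without A4). They were above 0 for 4 of 10 neuron (median -0.05, or -0.01 without A4), 0 of 10 oligodendrocyte (median -0.28) and 0 of 8 choroid plexus markers (median -0.42). The most abundant genes of these lists were, in this order, Vtn, Aldoc, Snap25, Mbp and Ttr. Oligodendrocyte markers summed to 3286, 3064 and 3013 FPKM in control and to 2682, 2638 and 2731 FPKM in depleted mice. Choroid plexus markers summed to 267, 418 and 242 FPKM in control and to 128.5, 122 and 137 FPKM in depleted mice. Neither sum overlapped between groups. The endothelial sum did not overlap either. Nor did the sum of the pericyte or fibroblast markers, at 76.9, 64.5 and 65.7 FPKM in control and 57.6, 62.9 and 53.1 FPKM in depleted mice. The sums of the other marker lists overlapped. The astrocyte median did not describe Gfap, the filament gene of reactive astrocytes, singled out after its values were seen, which was at 88.3, 64.5 and 84.2 FPKM in control and at 300.3, 109 and 120.1 FPKM in depleted mice (log2 fold change 1.00, or 0.54 without A4). Of the 10 astrocyte markers 2, Gfap and Sox9, had every depleted mouse above control and 2, Aldoc and Gja1, had every one below. Every depleted mouse was below control in 6 oligodendrocyte and 2 choroid plexus markers, against 9.38% of all genes. Ttr was at 173, 314 and 160 FPKM in control and at 64.3, 40.9 and 59.9 FPKM in depleted mice. Its log2 fold change was -1.91 (adjusted p of 0.151 in limma). In limma it passed the threshold with array weights (adjusted p of 0.0950) and without A4 (0.0962). The part of any of these cells in the NF-kB values was not tested.

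For the 3 members with the largest log2 fold changes in either direction, the genes with the most similar values over the 6 mice were found by the root mean square difference of log2(FPKM + 1) after centring. For Relb these were BC051142, Zfp612 and Plce1, at 0.05, 0.07 and 0.08, where the spread of Relb about its own mean was 0.34. For Nfkb2 they were Psmg4, Moap1 and Nfam1, at 0.08, 0.11 and 0.12 with a spread of 0.30, and for Rela they were Dapl1, Rbp4 and Irs2, at 0.05 each with a spread of 0.24. None belonged to the lists above.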

How the data were processed

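Total RNA of brain cortex was extracted, libraries were made with poly(A) selection, and 75-base reads were sequenced from both ends by the authors. The deposited table holds FPKM that the authors computed and scaled by TMM, and the submitters' processing notes name TopHat, RSEM, DESeq and the mouse build mm9. Members and lists were chosen with earlier results of these data known. Differences were tested on log2(FPKM + 1) with limma (eBayes with trend) for the 14385 genes that averaged 0.5 FPKM or more. P-values were adjusted over all of them by the Benjamini-Hochberg method with a threshold of 0.1. On simulated data with a change of 1 on the log2 scale in 200 genes, the procedure called 168 of them and 23 others. With none changed it called 0. Smaller changes, such as those of the members, were not simulated. Log2 fold changes of FPKM + 1 understate differences of low genes. Two-sided exact permutation tests were made per gene on the difference in mean FPKM. Depth was estimated from genes with a single annotated transcript of 400 to 1500 bases, and approximate fragments gave exact Poisson intervals at 95%. Named genes were all 10 members, from each pathway list the 2 highest and 2 lowest log2 fold changes, for the 3 members that differed most the 3 most similar genes, and of marker and interferon lists the most abundant gene and those at 0, of which 1 is not reported here; Psd, Xist, Gfap, Sox9, Gja1, P2ry12, Fcrls, Ly6c2, the complement genes and genes named because they overlap a member were chosen once their values had been seen. Alternatives changed the pseudocount, the filter, the scaling, the variance model and the threshold, and left out each mouse. Software was limma 3.58.1 in R 4.3.3, and scipy 1.17.1, pandas 2.3.3, matplotlib 3.10.9 and numpy 2.4.6 in Python 3.11.15.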

Additional observations from a re-analysis of the deposited data

How the results depend on the processing

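No member passed the adjusted threshold in limma under any alternative; the lowest adjusted p was 0.203, for Relb without A5. Of 127 log2 fold changes under alternatives 121 kept their direction and 6 did not: with 1 mouse left out Nfkb1 ran from -0.046 (without A5) to 0.15, Nfkbia from -0.22 (without A4) to 0.22, Nfkbib from -0.066 (without A4) to 0.17, and Tnfaip3 from -0.053 (without A4; -0.027 without A5) to 0.24, and with array weights Nfkbia was -0.072. The cause was not tested. Leaving out each mouse, which can only keep or raise such counts, gave 1 to 4 members whose groups did not overlap, against 1 with all mice, beside 23.6 to 32.7% of all genes (30.2% where it was 4). Over all genes 4 passed, 2 without the trend, 20 with array weights and 2 to 29 when 1 mouse was left out (2 without A1, 22 without A4, 29 without A5 and 8 without A6). Nfkb2 has no value under the filter at a mean of 1 FPKM, and Rel was tested in 2 alternatives only. No paired analysis was possible because the labels give the groups no shared replicate numbers. Depth limits the low members most: in A5 about 8 to 28 fragments lay behind each of Nfkbie, Rel, Nfkb2, Nfkbiz, Relb and Tnfaip3, and counting alone could not tell its Relb value from control.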
